A study of Mus musculus with 7 samples.

Results

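Desmosomes are the spot-like junctions that hold keratinocytes together and anchor their keratin filaments. Here the genes for 10 desmosome components were followed in mouse skin tumours with and without SOX2 overexpression: the desmogleins Dsg1a, Dsg1b, Dsg2 and Dsg3, the desmocollins Dsc1, Dsc2 and Dsc3, and the plaque proteins plakoglobin (Jup), desmoplakin (Dsp) and plakophilin 1 (Pkp1). They were taken by gene name from a table of 55423 features. All 10 passed the filter on low counts, which kept the 24433 genes that reached 5 reads in some tumour.

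Both groups were bulk cutaneous squamous cell carcinomas. In Ivl:BRAFV600E mice, topical tamoxifen at 7 to 10 weeks of age activated a Cre recombinase driven by the involucrin promoter (Ivl-CreERT2), which switched on the BRAFV600E oncogene in the IVL+ population, committed cells of the skin epithelium. Ivl:BRAFV600E-SOX2LSL mice, called SOX2LSL below, received the same induction and carried in addition the Rosa26 LSL-SOX2-IRES-eGFP allele, which expresses SOX2 and eGFP after recombination. Each group held 3 tumours from 3 mice, collected at the clinical endpoint, although the labels name 4 Ivl:BRAFV600E tumours. Ivl:BRAFV600E tumours 1 and 2 and SOX2LSL tumour 3 came from females and the others from males, and Ivl:BRAFV600E mice 1 and 2 also carried a tdRFP reporter allele. Every SOX2LSL tumour was collected sooner after induction than every Ivl:BRAFV600E tumour, so time since induction and genotype cannot be told apart. The numbers 1 to 3 only name the tumours.

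Desmosomal cadherins reach across the gap between neighbouring cells, desmogleins and desmocollins side by side. Their tails bind plakoglobin and the plakophilins, and desmoplakin links these to keratin. In the epidermis the cadherins are layered: Dsg3, Dsc3, Dsc2 and the sparse Dsg2 are the isoforms of the lower layers, while the Dsg1 genes and Dsc1 take over as keratinocytes move up and differentiate. The mouse has 3 copies of Dsg1, of which Dsg1a and Dsg1b are the main epidermal forms.

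The libraries held between 23565432 and 31152826 counts on genes. Levels are given as CPM, counts per 1 M counts after scaling of the library sizes by TMM, and the genotypes were compared with edgeR's quasi-likelihood test, with p-values adjusted over all 24433 genes and called below 0.05. Sox2 was between 0.238 and 0.716 CPM in the Ivl:BRAFV600E tumours and between 155 and 182 CPM in the SOX2LSL tumours, as the labels have it. SOX2LSL tumour 1 stood apart from the others, with the lowest level of all 10 desmosome genes in its group, 1010 CPM of Krt1 against 11874 and 13012 CPM in the other two, and the highest summed level of the skeletal muscle, immune and simple epithelial markers. Values without it are given where they change the call of a named gene or the number of calls in a list.

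The 3 cadherins of the differentiated layers had the largest fold changes among the components, with levels 3.22 to 5.25-fold lower in the SOX2LSL tumours, and of these Dsg1a passed the test. Dsg2 rose by 1.65-fold and passed, and Dsg3 was 1.62-fold higher without passing. The plaque genes Jup, Dsp and Pkp1 were between 1.79 and 2.19-fold lower and did not pass. So 1 of 10 components was called lower, where 1.51% of all genes tested were called lower, and 1 of 10 was called higher, where 2.39% of all genes were. At an unadjusted p below 0.05 there were 6 of 10 lower and 2 of 10 higher, beside 11.2% and 14.5% of all genes. The groups did not overlap in 9 of 10 components, 7 lower and 2 higher, beside 16.0% and 18.2% of all genes. The median log2 fold change of the 10 was -0.86, and that of all genes tested was 0.04.

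**Figure D1:**
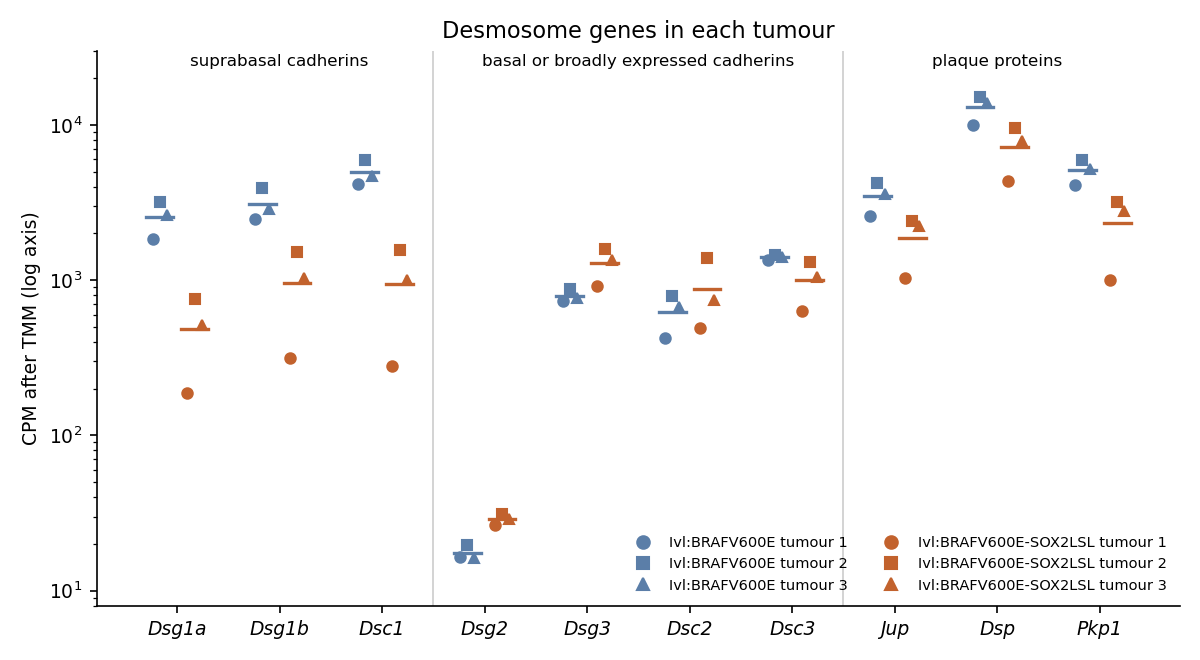
CPM of each desmosome gene (log axis) in the 3 Ivl:BRAFV600E (blue) and 3 SOX2LSL (orange) tumours, with a bar at each group mean; circles, squares and triangles are tumours 1, 2 and 3. The orange symbols lie well under the blue ones for Dsg1a, Dsg1b and Dsc1, above them for Dsg2 and Dsg3, and among them only for Dsc2.

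Dsg1a (ENSMUSG00000069441, chromosome 18 of GRCm38, 20310811 to 20343350, plus strand) was measured at 1844, 3166 and 2632 CPM in the Ivl:BRAFV600E tumours and 186, 758 and 513 CPM in the SOX2LSL tumours. The highest SOX2LSL tumour was thus well under the lowest Ivl:BRAFV600E tumour. The means were 2547 ± 665 and 486 ± 287 CPM (SD, n = 3 each), with a log2 fold change of -2.39 (standard error, SE, 0.50, edgeR adjusted p = 0.0491). The call lay close to the threshold: with a single tumour left out it was kept in 1 of 6 fits, the one without SOX2LSL tumour 1 (log2 fold change -2.01, edgeR adjusted p = 0.0134), and the highest adjusted p among the other 5 was 0.139.

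Dsg1b (ENSMUSG00000061928, chromosome 18, 20376729 to 20410196, plus strand) was measured at 2460, 3894 and 2883 CPM in the Ivl:BRAFV600E tumours and 314, 1525 and 1026 CPM in the SOX2LSL tumours. The groups again did not overlap, but SOX2LSL tumours 1 and 2 differed by 4.85-fold. The difference was -1.69 on the log2 scale (SE 0.53, edgeR adjusted p = 0.11), and without SOX2LSL tumour 1 it was -1.27 with an adjusted p of 0.0384. The copies are near-identical in part: 18.1% of the 150-base windows of the longest Dsg1a transcript and 23.8% of those of Dsg1b also occur in other genes, all of them Dsg1 copies, so reads may have been split between them. Dsg1a held 42.9%, 44.8% and 47.7% of the reads of Dsg1a and Dsg1b together in the Ivl:BRAFV600E tumours and 37.2%, 33.2% and 33.3% in the SOX2LSL tumours.

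Dsc1 (ENSMUSG00000044322, chromosome 18, 20084184 to 20114871, minus strand), the desmocollin of the upper layers, had 4177, 5956 and 4680 CPM in the Ivl:BRAFV600E tumours and 279, 1564 and 1006 CPM in the SOX2LSL tumours. Its means of 4938 ± 917 and 950 ± 644 CPM (SD, n = 3 each) differed by as much as those of Dsg1a. The log2 fold change was -2.38 (SE 0.57), with an edgeR adjusted p of 0.0646 that missed the threshold. The spread among the SOX2LSL tumours was the widest of any component, 67.8% of the mean, and without SOX2LSL tumour 1 the difference was called (log2 fold change -1.94, edgeR adjusted p = 0.0118).

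Among the isoforms of the lower layers, Dsg2 (ENSMUSG00000044393, chromosome 18, 20558074 to 20604521, plus strand) was the least abundant component, with 16.4, 19.7 and 16.3 CPM in the Ivl:BRAFV600E tumours and 26.6, 31.1 and 29.1 CPM in the SOX2LSL tumours. All 3 SOX2LSL tumours were higher, and the values within each group were close. The means were 17.5 ± 1.93 and 28.9 ± 2.26 CPM (SD, n = 3 each), and the log2 fold change of 0.72 (SE 0.14) had an edgeR adjusted p of 0.0436. It was also called without SOX2LSL tumour 1 (edgeR adjusted p = 0.0244), but in none of the other 5 fits that left out a tumour, where the highest adjusted p was 0.176. An antisense gene, Gm16090, overlaps 330 bases of Dsg2 exons and had at most 4 reads in any tumour. Since the strand used in counting is not stated, reads of this overlap cannot be assigned to either gene with certainty.

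Dsg3 (ENSMUSG00000056632, chromosome 18, 20510274 to 20547459, plus strand), the desmoglein of basal keratinocytes, had 736, 880 and 770 CPM in the Ivl:BRAFV600E tumours and 911, 1586 and 1356 CPM in the SOX2LSL tumours. Its groups did not overlap, although SOX2LSL tumour 1 was only slightly above the highest Ivl:BRAFV600E tumour. The log2 fold change was 0.69 (SE 0.23, edgeR adjusted p = 0.121), and without SOX2LSL tumour 1 it was 0.89 (edgeR adjusted p = 0.0189).

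The desmocollins of the lower layers did not pass in any fit with one tumour left out. Dsc2 (ENSMUSG00000024331, chromosome 18, 20030633 to 20059554, minus strand) was measured at 423, 790 and 671 CPM in the Ivl:BRAFV600E tumours and 490, 1379 and 743 CPM in the SOX2LSL tumours. It was the one component whose groups overlapped, with a log2 fold change of 0.47 (SE 0.40, edgeR adjusted p = 0.490) that rested on SOX2LSL tumour 2 and was -0.03 without it. Dsc3 (ENSMUSG00000059898, chromosome 18, 19960930 to 20002351, minus strand) was measured at 1341, 1459 and 1413 CPM in the Ivl:BRAFV600E tumours and 633, 1313 and 1052 CPM in the SOX2LSL tumours. Its groups were separated by a narrow gap, and the log2 fold change was -0.49 (SE 0.27, edgeR adjusted p = 0.290), or -0.25 without SOX2LSL tumour 1.

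The cadherin genes lie in 1 gene cluster, in which the log2 fold changes had both signs. The 9 protein-coding genes between 19960930 and 20604521 on chromosome 18, a stretch of 643.6 kb, are all desmosomal cadherins, and 7 of them are components followed here. In chromosomal order the log2 fold changes were -0.49 for Dsc3, 0.47 for Dsc2, -2.38 for Dsc1, -1.81 for Dsg1c, -2.39 for Dsg1a, -1.69 for Dsg1b, -1.45 for Dsg4, 0.69 for Dsg3 and 0.72 for Dsg2. The 5 genes from Dsc1 to Dsg4, neighbours in the middle of the cluster, had the most negative values, and Dsc3 at one end was also below 0. Of the other two genes, Dsg1c had between 5.25 and 7.07 CPM in the Ivl:BRAFV600E tumours and between 1.08 and 2.72 CPM in the SOX2LSL tumours (edgeR adjusted p = 0.0517), and Dsg4, a desmoglein of the hair follicle and upper epidermis, overlapped between the groups (edgeR adjusted p = 0.421). Dsg1c shares 150-base windows with the far more abundant Dsg1a and Dsg1b, so some of its few counts may be reads of these copies.

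**Figure D2:**
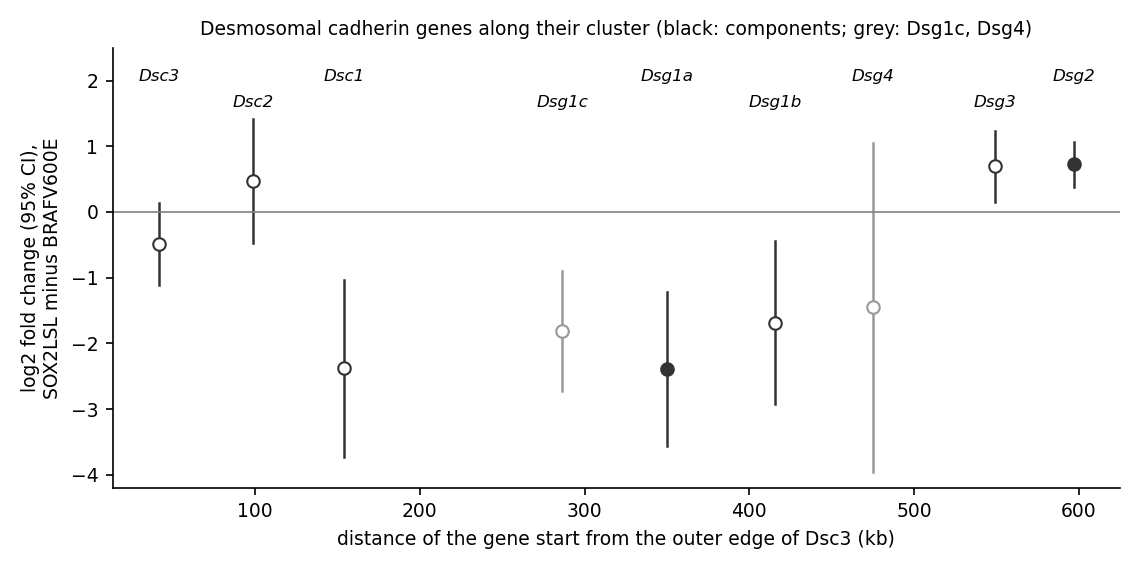
Log2 fold change (SOX2LSL minus Ivl:BRAFV600E, with 95% confidence interval) of the 9 cadherin genes against the distance of their start from the outer edge of Dsc3 in kb; filled symbols had an edgeR adjusted p below 0.05, and grey marks Dsg1c and Dsg4. The 5 genes from Dsc1 to Dsg4 all lie below 0, Dsg3 and Dsg2 lie above 0, and the interval of Dsg4 is the widest.

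Ratios within a tumour do not depend on how libraries are scaled. The ratio of Dsg1a and Dsg1b reads to Dsg3 reads was 5.85, 8.02 and 7.17 in the Ivl:BRAFV600E tumours and 0.549, 1.44 and 1.14 in the SOX2LSL tumours. The ratio of Dsc1 to Dsc3 reads was 3.11, 4.08 and 3.31 in the first group and 0.441, 1.19 and 0.956 in the second. In both pairs the Ivl:BRAFV600E tumours had at least 3.11 reads of the upper-layer isoform for each read of the lower-layer one. The SOX2LSL tumours had at most 1.44. These reads are not corrected for gene length. The mean log2 ratio differed by -2.85 for the desmogleins and by -2.13 for the desmocollins, each with an exact two-sided permutation p of 0.1, the smallest that 3 against 3 tumours allow. Without SOX2LSL tumour 1 the differences were -2.44 and -1.71.

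**Figure D3:**
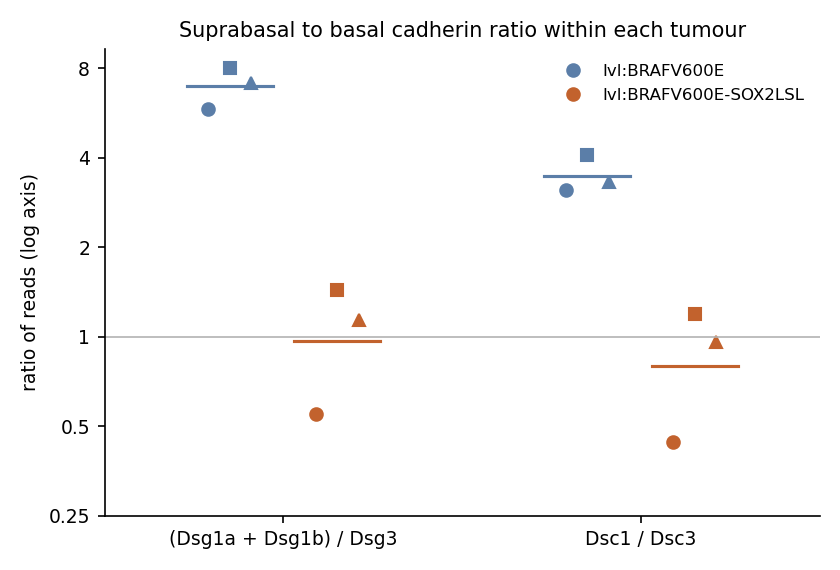
Ratio of reads of the upper-layer to the lower-layer cadherin (log axis) for desmogleins, (Dsg1a + Dsg1b) / Dsg3, and desmocollins, Dsc1 / Dsc3, in each tumour; bars are geometric means and symbols are tumours 1 (circle), 2 (square) and 3 (triangle). No SOX2LSL tumour exceeds a ratio of 1.44, and no Ivl:BRAFV600E tumour is under 3.11.

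To compare levels between genes, CPM was divided by the summed exon length in kb. Among the desmogleins, Dsg1a and Dsg1b made up 89.8%, 92.3% and 91.4% of the CPM per kb of the 4 genes in the Ivl:BRAFV600E tumours and 45.6%, 69.1% and 63.8% in the SOX2LSL tumours. Dsg3 made up 8.69 ± 1.24% and 39.7 ± 11.9% (SD, n = 3 each), and Dsg2 did not exceed 1.31% in any tumour. Of the desmocollin CPM per kb, Dsc1 held 71.9 ± 1.68% in the Ivl:BRAFV600E tumours and 32.1 ± 9.72% in the SOX2LSL tumours (SD, n = 3 each), while Dsc2 held 8.64 ± 1.49% and 31.1 ± 4.42%. The summed level of Dsg1a, Dsg1b and Dsc1 was 2203 ± 479 CPM per kb in the Ivl:BRAFV600E tumours and 515 ± 332 CPM per kb in the SOX2LSL tumours. That of Dsg2, Dsg3, Dsc2 and Dsc3 was 495 ± 56.4 and 538 ± 196 CPM per kb (SD, n = 3 each), with SOX2LSL tumour 1 the lowest and SOX2LSL tumour 2 the highest of all 6, so that the groups overlapped.

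**Figure D4:**
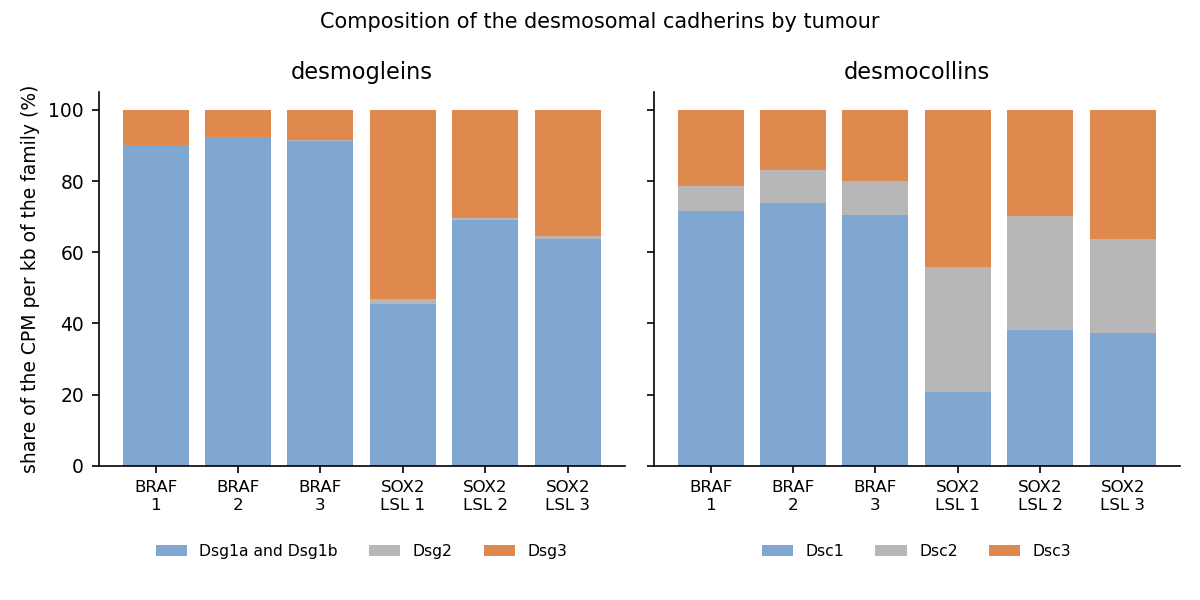
Share of each desmoglein (left) and desmocollin (right) in the summed CPM per kb of its family, in percent, one stacked bar per tumour. The blue share of Dsg1a and Dsg1b is at least 89.8% in the Ivl:BRAFV600E tumours and at most 69.1% in the SOX2LSL tumours, and that of Dsc1 is at least 70.5% and at most 38.1%.

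By level per kb, the order in the Ivl:BRAFV600E tumours was Dsp (1340 CPM per kb), Pkp1, Dsc1, Dsg1b, Jup, Dsg1a, Dsc3, Dsc2, Dsg3 and Dsg2 (2.12 CPM per kb). Places in this order depend on the length used, above all for Jup. Its summed exons hold 6436 bases and its longest transcript 3205, against 8268 and 5766 for Dsg2. An order by transcript length was not computed. Neighbours overlapped from Dsp down to Dsg1a and between Dsc2 and Dsg3, and the steps from Dsg1a to Dsc3, from Dsc3 to Dsc2 and from Dsg3 to Dsg2 exceeded the spread between tumours. In the SOX2LSL tumours Dsp (750 CPM per kb) and Pkp1 again came first and Dsg2 (3.50 CPM per kb) last. Dsc1 took the fifth place there, and Dsg1a, with 85.4 CPM per kb, came after Dsc3, Dsg3 and Dsc2. The step from Dsg1a to Dsg2 was the only one between neighbours in that order that exceeded the spread. These ranges ignore that all genes were measured in the same tumours. Within every tumour Dsp was above Pkp1. Each Ivl:BRAFV600E tumour also had Dsc1 above Dsg1b, Dsg1b above Jup and Jup above Dsg1a. Each SOX2LSL tumour had Pkp1 above Jup, Dsg1b above Dsc1 and Dsc2 above Dsg1a. The other overlapping neighbours changed places between tumours.

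None of the 3 plaque genes passed the test, and each had a log2 fold change below 0. Jup (ENSMUSG00000001552, chromosome 11, 100368958 to 100397763, minus strand), which serves both desmosomes and adherens junctions, had 2586, 4249 and 3601 CPM in the Ivl:BRAFV600E tumours and 1037, 2388 and 2215 CPM in the SOX2LSL tumours. The highest SOX2LSL tumour stayed just under the lowest Ivl:BRAFV600E tumour. The log2 fold change was -0.89 (SE 0.35, edgeR adjusted p = 0.173), or -0.60 without SOX2LSL tumour 1.

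Dsp (ENSMUSG00000054889, chromosome 13, 38151294 to 38198577, plus strand), the link to keratin filaments, was the most abundant component, with 9913, 15094 and 13827 CPM in the Ivl:BRAFV600E tumours and 4375, 9528 and 7832 CPM in the SOX2LSL tumours. A narrow gap separated the groups, SOX2LSL tumour 2 coming near to Ivl:BRAFV600E tumour 1. The log2 fold change was -0.84 (SE 0.35, edgeR adjusted p = 0.188), or -0.58 without SOX2LSL tumour 1. The antisense gene Gm10129, which overlaps 499 bases of Dsp exons, had at most 9 reads in a tumour.

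Pkp1 (ENSMUSG00000026413, chromosome 1, 135871395 to 135919207, minus strand), the plakophilin of the upper epidermal layers, had 4098, 5975 and 5175 CPM in the Ivl:BRAFV600E tumours and 1004, 3166 and 2777 CPM in the SOX2LSL tumours. Its groups did not overlap, and SOX2LSL tumour 1 was again far under the other two. The log2 fold change was -1.13 (SE 0.42, edgeR adjusted p = 0.152), or -0.78 without SOX2LSL tumour 1 (edgeR adjusted p = 0.0786).

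The order of the tumours was shared across the components. Tumour 2 was the highest of its group for all 10 genes in both groups, SOX2LSL tumour 1 was the lowest for all 10, and Ivl:BRAFV600E tumour 1 was the lowest for 9 of 10, Dsg2 being the exception. The coefficient of variation lay between 4.21% and 29.8% among the Ivl:BRAFV600E tumours and between 7.82% and 67.8% among the SOX2LSL tumours. It was larger in the SOX2LSL tumours for each gene but Dsg2. The mean log2 CPM of the 10 genes was 10.3, 10.9 and 10.6 in the Ivl:BRAFV600E tumours and 8.89, 10.3 and 9.93 in the SOX2LSL tumours. The genes whose log2 CPM followed this mean most closely over the 6 tumours, among 8641 genes with a mean of at least 10 CPM, were Tgm3, Pfkfb4, Tmem45b, Abcf1, Krt16, Krt6a, Herc1, Klf10, Rnf222 and Ly6d. Their Pearson correlation lay between 0.992 and 0.996, a description over 6 tumours of 2 groups, and none of them had an edgeR adjusted p under 0.145.

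The set of RefSeq (GRCm38.p6) promoter windows used held 2 of the 10 components, Jup and Dsp, which are shown for that reason. Dsg1a, Dsg1b, Dsg2, Dsg3, Dsc1, Dsc2, Dsc3 and Pkp1 were not matched in this set. The 250 bases upstream of each RefSeq start are written 5′ to 3′ on the strand of the gene, chr11:100397791-100398040 (minus strand) for Jup and chr13:38151044-38151293 (plus strand) for Dsp. Capitals mark the letters CCAAT and GGGCGG, the CCAAT box and the GC box, on either strand.
Jup: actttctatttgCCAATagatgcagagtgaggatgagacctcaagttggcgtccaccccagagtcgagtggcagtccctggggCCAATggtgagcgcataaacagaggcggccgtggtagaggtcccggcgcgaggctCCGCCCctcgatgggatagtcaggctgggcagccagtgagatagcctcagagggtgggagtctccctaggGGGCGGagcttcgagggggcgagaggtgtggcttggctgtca
Dsp: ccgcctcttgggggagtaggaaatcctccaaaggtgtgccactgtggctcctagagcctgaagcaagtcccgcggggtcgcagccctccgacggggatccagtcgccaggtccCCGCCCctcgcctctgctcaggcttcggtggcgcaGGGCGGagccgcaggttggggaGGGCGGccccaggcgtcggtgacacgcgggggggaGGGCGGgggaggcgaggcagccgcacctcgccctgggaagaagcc
Jup held 2 CCAAT boxes, which start 238 and 167 bases before the RefSeq start, and 2 GC boxes at 112 and 42 bases. This start lies 27 bases upstream of the GENCODE start of Jup given above, while both starts of Dsp are the same base. Dsp held no CCAAT box and 4 GC boxes, at 137, 102, 80 and 45 bases. Of 32851 windows of this length, 33.8% held a CCAAT box and 32.7% a GC box. The letters TGANTCA of AP-1, the E-box CAGGTG, the SOX core ACAAT and the letters GATAA, searched on both strands and found in 6.75%, 17.2%, 27.7% and 22.6% of all windows, occurred in neither sequence. The GC content was 62.0% for Jup and 72.4% for Dsp.

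A further list held 17 other genes of desmosomes, of the corneodesmosomes into which they mature, and of enzymes that act on them. With edgeR, 1 of the 17 was called lower, where 1.51% of all genes were, and none higher (2.39% of all genes), and the median log2 fold change was -0.74. At an unadjusted p below 0.05 there were 6 lower and 3 higher, beside 11.2% and 14.5% of all genes. DESeq2 called 6 lower and 1 higher, beside 7.76% and 10.5%, and limma called 4 lower and 1 higher, beside 3.97% and 4.80% of all genes. Spink5, an inhibitor of the kallikreins that cleave corneodesmosomes, fell from 2223, 3157 and 2142 CPM to 381, 887 and 481 CPM, a log2 fold change of -2.10 (SE 0.35, edgeR adjusted p = 0.0293). Neither Spink5 nor any other gene of this list was called without any single Ivl:BRAFV600E tumour or with sex as a covariate. Cdsn, the corneodesmosin of the upper layers, had a log2 fold change of -1.92 (edgeR adjusted p = 0.0511). Perp, a tetraspan membrane protein of desmosomes, had -1.27 (0.111), and the plakin envelope proteins Evpl and Ppl had -0.84 each (0.123 and 0.0746), with no overlap between groups in any of these 4. Without SOX2LSL tumour 1, Cdsn (log2 fold change -1.58, edgeR adjusted p = 0.0131) and Ppl (-0.65, 0.0382) passed.

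None of the other 3 plakophilin genes, Pkp2, Pkp3 and Pkp4, passed the edgeR test. Pkp3, found throughout the epidermis, had 815, 1167 and 1008 CPM in the Ivl:BRAFV600E tumours and 295, 717 and 710 CPM in the SOX2LSL tumours, a log2 fold change of -0.80 (SE 0.35, edgeR adjusted p = 0.202). Pkp2, the plakophilin of simple epithelia and heart, had 0.580, 0.832 and 0.570 CPM in the Ivl:BRAFV600E tumours and 8.14, 3.17 and 1.70 CPM in the SOX2LSL tumours, a log2 fold change of 2.71 (SE 0.61, edgeR adjusted p = 0.0558). Without SOX2LSL tumour 1 it was 1.88 (SE 0.40) and passed (edgeR adjusted p = 0.0415). Pkp4, a more widely expressed relative, had 72.7, 69.7 and 63.5 CPM and then 84.3, 86.6 and 92.2 CPM, with no overlap between the groups (log2 fold change 0.35, edgeR adjusted p = 0.116). The summed level of 6 simple and mucosal epithelial markers was at most 39.4 CPM in any Ivl:BRAFV600E tumour and 494, 252 and 118 CPM in the SOX2LSL tumours, and that of the skeletal muscle markers was 710, 426 and 87.3 CPM in the latter, both in the order of Pkp2. Of the former sum, the mucosal keratin Krt13 gave 158, 236 and 96.4 CPM. The simple keratins Krt7 and Krt19 were high in SOX2LSL tumour 1 alone (15.4 and 86.8 CPM, and at most 1.38 CPM in any other tumour). Krt8 had 106, 8.65 and 2.31 CPM in the SOX2LSL tumours and at most 1.05 CPM in the Ivl:BRAFV600E tumours. Krt18 had 91.2, 2.24 and 1.19 CPM, against at most 1.95 CPM. Without SOX2LSL tumour 1 the log2 fold change of Krt7 turned from 2.61 to -0.78 (edgeR adjusted p = 0.507), and that of Krt19 from 4.76 to -4.25 (0.0288). Krt19 then had fewer than 3 reads in each remaining SOX2LSL tumour. Those of Krt8 and Krt18 stayed above 0, at 3.26 (0.106) and 0.73 (0.580). The part of these markers in the level of Pkp2 was not tested.

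Adherens junctions are the other cadherin-based contact of keratinocytes. Of 11 adherens junction genes, 1 was called higher with edgeR, where 2.39% of all genes were, and none lower (1.51% of all genes), and their median log2 fold change was 0.35. At an unadjusted p below 0.05 there were 5 higher and 1 lower, beside 14.5% and 11.2% of all genes. DESeq2 called 3 higher (10.5% of all genes) and limma 2 (4.80%), and both called 0 lower. Without SOX2LSL tumour 1, edgeR called 2 higher (3.59% of all genes), Cdh3 and the nectin gene Nectin2 (log2 fold change 0.64, edgeR adjusted p = 0.0283). Cdh3, the P-cadherin of basal keratinocytes, had 103, 99.5 and 96.8 CPM in the Ivl:BRAFV600E tumours and 210, 157 and 188 CPM in the SOX2LSL tumours, a log2 fold change of 0.89 (SE 0.14, edgeR adjusted p = 0.0272). No gene of this list, Cdh3 included, was called without any single Ivl:BRAFV600E tumour, without SOX2LSL tumour 3 or with sex as a covariate. E-cadherin, Cdh1, had 638, 667 and 651 CPM and then 916, 815 and 765 CPM, higher in each SOX2LSL tumour by a margin that did not pass (log2 fold change 0.35, edgeR adjusted p = 0.175). Ctnnb1, the beta-catenin that takes the place of plakoglobin at these junctions, had a log2 fold change of 0.36 (edgeR adjusted p = 0.210). Within the SOX2LSL group, tumour 1 was the highest for 6 of the 11 genes, Cdh1, Ctnnb1 and Cdh3 among them, and the lowest for 4. The difference between the lists was not tested.

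**Figure D5:**
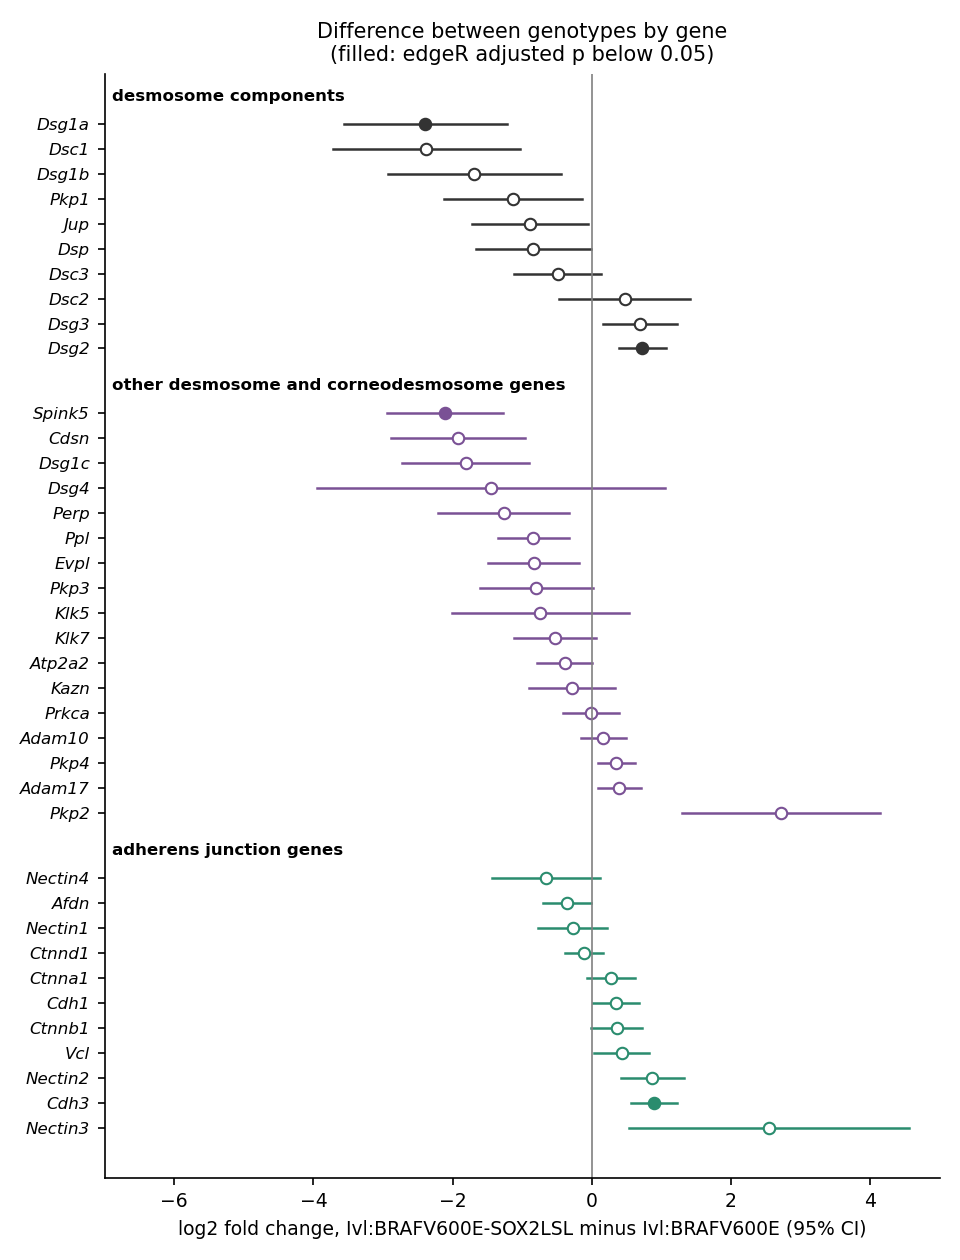
Log2 fold change (SOX2LSL minus Ivl:BRAFV600E, with 95% confidence interval) of the 10 desmosome components, 17 further desmosome genes and 11 adherens junction genes, 3 tumours per group; filled symbols had an edgeR adjusted p below 0.05. Filled are Dsg1a and Dsg2 among the components, Spink5 among the further genes and Cdh3 among the adherens junction genes, and 7 of the 10 components lie below 0.

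In bulk tumours, fewer cells of a type and less RNA per cell cannot be told apart, so the levels of the layer markers are set beside the components. Krt10 and Krt1, the keratins of the differentiated layers, had log2 fold changes of -3.06 (edgeR adjusted p = 0.0935) and -2.24 (0.149) with no overlap, and without SOX2LSL tumour 1 both passed (-2.53, 0.0112, and -1.71, 0.0179). The summed level of 7 suprabasal markers was between 78096 and 91585 CPM in the Ivl:BRAFV600E tumours and 2677, 18769 and 26190 CPM in the SOX2LSL tumours. With edgeR, 1 of the 7 was called lower, where 1.51% of all genes were: Sbsn, a secreted protein of these layers, with a log2 fold change of -1.97 (edgeR adjusted p = 0.0267). At an unadjusted p below 0.05, 6 of the 7 were lower (11.2% of all genes), and 6 were lower with no overlap between the groups (16.0%). Ivl was the exception in both (log2 fold change -0.64, edgeR adjusted p = 0.611). DESeq2 called 6 lower (7.76%) and limma 4 (3.97%). With SOX2LSL tumour 1 left out, edgeR called 5 of the 7 lower (3.10% of all genes), Sbsn, Krt10, Krt1, Lor and Krtdap. Krt5 and Krt14, the keratins of the basal layer, overlapped between the groups, with log2 fold changes of 0.29 (edgeR adjusted p = 0.452) and -0.65 (0.447). Of the 7 basal markers, edgeR called 0 and DESeq2 called 3 higher (10.5% of all genes), limma called 2 higher (4.80%), and 4 were higher at an unadjusted p below 0.05 (14.5%). With SOX2LSL tumour 1 left out, edgeR called 1 higher (3.59%), the hemidesmosome integrin Itgb4 (log2 fold change 0.64, edgeR adjusted p = 0.0279). All 4 markers of stressed keratinocytes, Krt6a, Krt6b, Krt16 and Krt17, had log2 fold changes below 0 (median -1.15). Of these, edgeR and limma called 0, and DESeq2 called 2 lower (7.76% of all genes). At an unadjusted p below 0.05, 2 were lower (11.2%). The part of the suprabasal and stress markers in the lower Dsg1a, Dsg1b and Dsc1 was not tested.

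Other cell type markers were measured beside these. Of 5 tested skeletal muscle markers, Acta1, Ckm, Tnnt3 and Mylpf were called higher with edgeR, where 2.39% of all genes were. DESeq2 called 4 and limma 1 (10.5% and 4.80% of all genes), and without SOX2LSL tumour 1 edgeR called all 5 (3.59%). Their summed level was between 0.853 and 1.71 CPM in the Ivl:BRAFV600E tumours and between 87.3 and 710 CPM in the SOX2LSL tumours. Of 5 tested immune markers, Ptprc (log2 fold change 1.30) and Csf1r (1.98) were called higher with an edgeR adjusted p of 0.0483 each, beside 2.39% of all genes, and 4 of the 5 were higher at an unadjusted p below 0.05 (14.5%). DESeq2 called 4 higher (10.5%) and limma 2 (4.80%), and the sum was between 32.7 and 54.6 CPM against 90.0 to 205 CPM. Of 31 markers of fibroblasts, endothelium, hair follicles, melanocytes, adipocytes or simple and mucosal epithelium, edgeR called 0. At an unadjusted p below 0.05, 8 were higher and 1 lower, beside 14.5% and 11.2% of all genes. DESeq2 called 3 higher and 1 lower (10.5% and 7.76% of all genes), and limma 2 higher and 1 lower (4.80% and 3.97%). Without SOX2LSL tumour 1, 3 melanocyte and 2 adipocyte markers were still tested, with all those of the other lists. Of these edgeR called 1 lower (3.10% of all genes), Krt19, and 0 higher (3.59%). Krt19 was at 0.0324 and 0.0722 CPM in SOX2LSL tumours 2 and 3, under the level of 3 reads (0.0972 and 0.108 CPM). The part of these cells in the desmosome levels was not tested.

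With DESeq2, the tool of the study, 4 of 10 components were called lower (Dsg1a, Dsg1b, Dsc1 and Pkp1), where 7.76% of all genes with an adjusted p were, and 2 of 10 higher (Dsg2 and Dsg3), where 10.5% were. Without SOX2LSL tumour 1, edgeR called 3 lower (Dsg1a, Dsg1b and Dsc1), where 3.10% of all genes were, and 2 higher (Dsg2 and Dsg3), where 3.59% were. Each of the other 5 fits that left out a tumour called 0 components and 22 to 412 genes in all, and the fit with sex as a covariate called 0 components and 228 genes.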

How the data were processed

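Bulk tumour RNA was sequenced after depletion of ribosomal RNA (paired-end, 150 bases). The authors trimmed the reads with Trim Galore, aligned them to GRCm38 with HISAT2 2.1.0 and counted them per gene with featureCounts (Subread 1.6.3), after checks with FastQC 0.11.8. They deposited raw counts per gene in one table. Whether strand or multimapping reads were used is not stated. Columns are named by mouse. Of 7 columns, 6 were tied to a genotype through the study's list of mice, and 1 was not used. Its name starts as those of the SOX2LSL mice do, whereas the labels leave a place only for another Ivl:BRAFV600E tumour, so which group it belongs to is not known. The test designed for 4 against 3 tumours was therefore run on 3 against 3. Libraries differed from each other by more than counting noise, and p-values measure the spread between these mice.

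The filter kept 24433 genes that reached 5 reads in 1 tumour or more. Library sizes were scaled by TMM and genotype was tested with edgeR 4.0.16 in R 4.3.3 (quasi-likelihood test, Benjamini-Hochberg adjustment at 0.05). The code was tested on simulated counts. Log2 CPM uses a prior count of 2, and read ratios add 0.5 reads. Positions and exon lengths are from GENCODE M21 and promoters from RefSeq. Intervals cover 95%. Alternatives were DESeq2 1.42.0, limma 3.58.1 (voom with sample weights), other scalings and filters, sex as a covariate, leaving out the 10 most counted genes, and each tumour left out. Figures used Python 3.11.15 with matplotlib 3.10.9.

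The components and gene lists were chosen with earlier results of these data known. Named are all 10 components, list genes that were called, 12 further list genes set out by name, and the 10 genes most like the components. Dsg1c, Dsg4, Pkp4, Krt7, Krt8, Krt13, Krt18, Krt6b, Krt17 and Ivl were added after their values were seen.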

Additional observations from a re-analysis of the deposited data

How the results depend on the processing

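The number of called components rested on the fit. With DESeq2, 4 components were called lower and 2 higher, with limma 2 and 2, without a filter on low counts 2 lower, with upper-quartile scaling 0 higher, and with sex as a covariate 0 in both directions. The main fit called 954 genes in all. DESeq2 called 3653, limma 2142, the fit without a filter 1759, filterByExpr 1296, upper-quartile scaling 974 and the fit with sex 228. Fits that left out a tumour called 0 to 3 components lower, 0 to 2 higher and 22 to 1575 genes in all. The further desmosome list had 7 calls with DESeq2, 5 with limma, 4 without a filter, 3 with filterByExpr, 2 with upper-quartile scaling, 0 with sex and 0 to 4 with a tumour left out. The adherens junction list had 3 calls with DESeq2, 2 each with limma, without a filter and with filterByExpr, 0 with sex and 0 to 2 with a tumour left out. The causes were not tested, save that fits without a tumour hold fewer tumours. Over 14 alternatives, 9 of the 10 components kept their direction, 13 for Dsp, which was itself among the 10 genes removed. Dsc2 turned from 0.47 to -0.027 without SOX2LSL tumour 2, and its log2 fold change lay between -0.027 and 0.76 with a tumour left out. The median log2 fold change of the components stayed between -1.09 and -0.59. The difference in mean log2 ratio between the groups stayed between -3.23 and -2.44 for the desmogleins and between -2.42 and -1.71 for the desmocollins. No paired analysis was possible because the columns carry no replicate number. The least counted component, Dsg2, had at least 344 reads in each tumour.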
